A study of Mus musculus with 32 samples.

Results

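The genes described here are the conjugating enzymes of phase II metabolism in mouse liver, grouped as Gst (glutathione S-transferases, soluble and microsomal), Ugt (UDP-glucuronosyltransferases) and Sult (sulfotransferases). Members were chosen by name, as protein-coding genes whose symbol starts with Gsta, Gstm, Gstp, Gstt, Gstk, Gsto, Gstz, Mgst, Ugt1a, Ugt2, Ugt3 or Sult. The annotation holds 67 such genes, of which 52 were among the 20076 genes of the count table and 39 reached 1 CPM, a read count scaled to library size, in at least 4 mice. Those 39 were 18 of 21 Gst, 13 of 17 Ugt and 8 of 14 Sult genes, among 13960 genes of any kind that passed the same filter. The 13 members in the table that did not pass were Gsta1, Gsto2, Mgst2, Sult2a1, Sult2b1, Sult3a1, Sult4a1, Sult6b1, Sult6b2, Ugt1a6b, Ugt1a9, Ugt2a2 and Ugt3a1, and 15 further members, including Gstp1 to Gstp3 and Sult2a2 to Sult2a6, were not analysed here.

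The samples, all labelled as liver, came from 32 male mice on the C57BL/6J background, with ages labelled 7.5 to 16 without a unit, of which 16 lacked medium-chain acyl-CoA dehydrogenase (MCAD, the product of Acadm; KO) and 16 were wild type (WT). Mice of each genotype ate a low-fat (LF) or high-fat (HF) diet for 6 weeks and were killed fed or after 16 h without food, which gives 8 groups of 4. The deletion is whole-body, so effects of the missing enzyme in liver and in other tissues cannot be told apart. RNA was read as short tags from the 3′ end of each transcript, 2031053 to 4292200 counted reads per mouse with a median of 2899001. A tag count does not grow with transcript length, so CPM values were compared between genes without a length correction. Replicate 4 of KO HF fasted and replicate 2 of WT LF fed were left out, which leaves 30 mice. Heart markers in replicate 4 of KO HF fasted added up to 37669 CPM, where none of the 30 mice exceeded 125 CPM, and hepatocyte markers to 752 CPM, which goes against its label as liver. Replicate 2 of WT LF fed exceeded the 30 mice in stellate cell markers, with 1338 CPM beside a highest value of 655, and in cholangiocyte markers, with 333 CPM beside 130. Its hepatocyte markers added up to 32148 CPM, below all 30 mice. Acadm had 26 to 94 counts in KO mice and 566 to 2752 in WT mice, so every library matched its genotype label. Hepatocyte markers summed to 40273 to 64922 CPM in the 30 mice. In bulk liver, fewer cells of a type and less RNA per cell cannot be told apart.

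Glutathione S-transferases couple the tripeptide glutathione to electrophiles such as lipid peroxidation products and drug metabolites. UDP-glucuronosyltransferases, which sit in the membrane of the endoplasmic reticulum, transfer glucuronic acid to bilirubin, steroids, bile acids and drugs, and cytosolic sulfotransferases transfer a sulfonate group from the donor PAPS to phenols, steroids and bile acids. The liver is the main site of all 3 reactions, and their products leave in bile or urine. Many of these genes are known targets of the nuclear receptors CAR and PXR, of NRF2, which acts through antioxidant response elements, and of the aryl hydrocarbon receptor, which acts through xenobiotic response elements.

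Promoters of 4 members are shown because the results turn on them: Gstm3, Mgst3 and Gsta3, with the largest falls among the Gst genes on fasting, and Gstk1, whose response to fasting depended on the diet. Each window is 300 bases on the gene's own strand, 5′ to 3′, from 250 bases before to 50 after a transcription start, taken from RefSeq on build GRCm38.p6. Capitals mark matches, on either strand, of TGANNNNGC or of the xenobiotic response element core GCGTG. TGANNNNGC is a loose form of the antioxidant response element core that leaves all bases between TGA and GC free.
Gstm3, chr3:107969125-107969424, minus strand: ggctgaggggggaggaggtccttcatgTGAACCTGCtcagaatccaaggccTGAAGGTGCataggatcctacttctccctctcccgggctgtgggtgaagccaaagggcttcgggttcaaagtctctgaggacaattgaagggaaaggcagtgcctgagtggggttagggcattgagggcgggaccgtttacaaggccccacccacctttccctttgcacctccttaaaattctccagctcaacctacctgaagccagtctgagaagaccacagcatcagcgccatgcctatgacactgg
Gsta3, chr1:21240335-21240634, plus strand: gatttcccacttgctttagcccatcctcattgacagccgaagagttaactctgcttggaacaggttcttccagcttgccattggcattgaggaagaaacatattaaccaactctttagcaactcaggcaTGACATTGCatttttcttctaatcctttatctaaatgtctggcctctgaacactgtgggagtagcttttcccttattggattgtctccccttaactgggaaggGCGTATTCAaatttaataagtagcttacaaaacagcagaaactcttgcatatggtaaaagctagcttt
Mgst3, chr1:167393792-167394091, minus strand: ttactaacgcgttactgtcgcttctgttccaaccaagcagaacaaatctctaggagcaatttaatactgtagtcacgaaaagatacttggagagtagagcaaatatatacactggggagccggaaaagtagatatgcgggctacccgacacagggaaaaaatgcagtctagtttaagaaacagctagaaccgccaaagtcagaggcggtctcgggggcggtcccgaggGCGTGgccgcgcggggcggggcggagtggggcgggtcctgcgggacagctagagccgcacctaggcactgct
Gstk1, chr6:42245685-42245984, plus strand: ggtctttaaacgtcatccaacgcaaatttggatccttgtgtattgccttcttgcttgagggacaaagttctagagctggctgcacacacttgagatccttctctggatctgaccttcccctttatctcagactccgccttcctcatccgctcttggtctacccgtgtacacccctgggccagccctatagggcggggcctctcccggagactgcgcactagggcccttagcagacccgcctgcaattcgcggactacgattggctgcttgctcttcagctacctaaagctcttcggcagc

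The Gstm3 and Gsta3 windows each held 2 matches of this loose form of the antioxidant response element core. The Mgst3 window held 1 match of the xenobiotic response element core, and the Gstk1 window held neither. RefSeq windows were found for 35 of the 39 members, 45 windows in all, with no entry for Gsta4, Gstt2, Sult2a7 and Ugt3a2. The antioxidant response element core stood in 23 of the 45 windows, belonging to 20 members, and in 41.3% of all 32851 promoter windows. The xenobiotic response element core stood in 8 of the 45 windows and in 32.4% of all windows. Split by the response to fasting given below, the antioxidant response element core stood near 5 of 9 members that fell, 2 of 3 that rose and 13 of 23 that did neither. All counts of the antioxidant response element core use the loose form, and a stricter form was not searched. A match of these short motifs describes the sequence and does not show that a factor binds there.

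Among the 39 members, transcripts of Gst genes made up 70.4% of the summed CPM, those of Ugt genes 20.2% and those of Sult genes 9.35%. A single gene, Mgst1, which encodes the microsomal glutathione transferase of the endoplasmic reticulum and outer mitochondrial membrane, had a mean of 5145 CPM over the 30 mice, and the Mgst family held 44.2% of the total. Next among the Gst genes came Gsta3 at 1106 CPM, Gstm1 at 700 CPM (699.84) and Gstz1 at 418 CPM, the last a maleylacetoacetate isomerase of tyrosine breakdown. The Ugt total was made mostly by Ugt2b genes, 15.9% of the members' CPM, led by Ugt2b36 at 555 CPM, Ugt2b5 at 545 CPM, Ugt2b34 at 396 CPM and Ugt2b1 at 351 CPM. Ugt1a genes, which include the bilirubin-conjugating Ugt1a1, held 0.086%, a lower bound, since these genes share their last exons and reads that overlap several genes were not counted. The most abundant Sult genes were Sult2a8, of the hydroxysteroid and bile acid sulfotransferase family, at 590 CPM (589.975), Sult1a1, the phenol sulfotransferase, at 315 CPM, Sult1d1 at 132 CPM and Sult1b1 at 30.5 CPM.

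Summed over a class, the levels of fed and fasted mice overlapped in all 3 classes. Summed Gst CPM was 8468 ± 936 (SD, n = 15) in fed and 7948 ± 1401 (n = 15) in fasted mice. Without Mgst1, a sum chosen after its level was seen, the other 17 Gst genes came to 3615 ± 504 CPM in fed and 2510 ± 626 CPM in fasted mice. Ugt sums were 2450 ± 183 CPM fed and 2265 ± 432 CPM fasted, and Sult sums 1005 ± 138 CPM fed and 1173 ± 223 CPM fasted. The lowest of the 30 mice in all 3 sums was replicate 1 of KO LF fasted, at 4240, 1237 and 501 CPM (500.505), and Mgst1 was at 1906 CPM in that mouse.

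**Figure D1:**
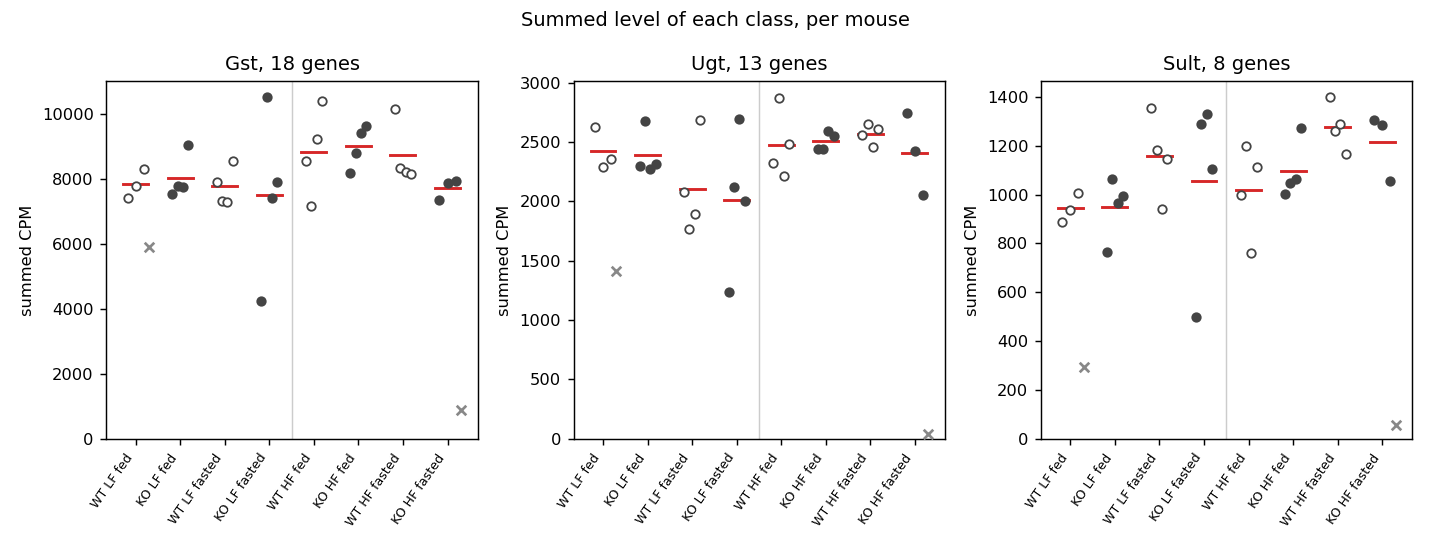
Summed CPM of the Gst, Ugt and Sult members in each mouse, by group; open circles are WT mice, filled circles KO mice, red lines group means of the mice used, and grey crosses the 2 libraries left out. Fed and fasted mice overlap in each panel, and the library of replicate 4 of KO HF fasted lies lowest in all 3.

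The first comparison asked how a 16 h fast changed these genes. Fasting lowered most of the responding Gst genes: averaged over diet and genotype, 13 of the 39 members passed an adjusted p below 0.05 (edgeR quasi-likelihood test, Benjamini-Hochberg over all genes), against 15.7% of all genes tested. Of these, 9 fell, where 7.7% of all genes fell, and 4 rose. The Gst genes gave 10 calls of 18, 8 of them lower, the Sult genes 3 of 8, 1 of them lower, and the 13 Ugt genes none, with 3 at an unadjusted p below 0.05, where 26.3% of all genes were. The estimate was below 0 for 28 of 39 members, with a median log2 fold change of −0.17, and for 50.5% of all genes.

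Members of the Gstm cluster on chromosome 3, mu-class transferases lying between 107895821 and 108044894 on GRCm38, fell in 5 of 7 cases, and the estimates of all 7 were below 0. Gstm3 ranged from 8.13 to 44.3 CPM with a median of 20.9 in 15 fed mice and from 0.339 to 12.8 CPM with a median of 3.11 in 15 fasted mice. Fed and fasted levels of Gstm3 overlapped only between 8.13 and 12.8 CPM, and the log2 fold change was −2.53 ± 0.30 (SE, adjusted p = 5.18e-07). Gstm6 lay at 52.5 to 121 CPM (median 97.6) in fed and 25.6 to 80.8 CPM (median 46.3) in fasted mice, a log2 fold change of −1.01 ± 0.14 (adjusted p = 1.56e-06). Gstm7 lay at 32.9 to 63.9 CPM in fed and 22.1 to 37.8 CPM in fasted mice, a log2 fold change of −0.66 ± 0.10 (adjusted p = 2.05e-06). The more abundant Gstm1 fell less, from a median of 815 CPM to 514 CPM, with ranges of 640 to 1246 and 383 to 1071 CPM and a log2 fold change of −0.52 ± 0.10 (adjusted p = 0.000133). Gstm2 fell by 0.61 ± 0.16 on the log2 scale (adjusted p = 0.00448). Gstm1, Gstm6 and Gstm2 share 23%, 11.8% and 10.1% of the 50-base windows near their 3′ ends with other transcripts, so reads may be split or lost among near-identical copies.

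Outside that cluster, Gsta3, an alpha-class transferase and the second most abundant member, lay at 1219 to 2045 CPM (median 1434) in fed and 319 to 1432 CPM (median 573) in fasted mice. Its log2 fold change was −1.10 ± 0.17 (adjusted p = 2.41e-05), and the ranges of fed and fasted mice overlapped. Mgst3, a microsomal transferase, was at 3.33 to 9.51 CPM in fed and 0 to 6.03 CPM in fasted mice, a log2 fold change of −1.43 ± 0.28 (adjusted p = 0.000144). Gstt1, of the theta class, fell from a median of 196 to 153 CPM (log2 fold change −0.37 ± 0.09, adjusted p = 0.00156). The neighbouring theta-class gene Gstt2 rose, from 27.9 to 74.2 CPM (median 45.4) in fed to 67.3 to 199 CPM (median 114) in fasted mice, with a log2 fold change of 1.34 ± 0.17 (adjusted p = 1.82e-06). Gstt1 and Gstt2 lie on chromosome 10 between 75774115 and 75837424, together with Gstt3, which did not pass. Gsto1, the omega-class member, lay at 61.3 to 106 CPM in fed and 88.2 to 153 CPM in fasted mice and rose by 0.55 ± 0.09 on the log2 scale (adjusted p = 3.92e-06). Mgst1, the most abundant member, was at a median of 4855 CPM fed and 5771 CPM fasted and did not pass in either diet.

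Of the sulfotransferases, Sult1a1 rose: it lay at 207 to 349 CPM (median 243) in fed and 197 to 694 CPM (median 361) in fasted mice, a log2 fold change of 0.62 ± 0.11 (adjusted p = 3.05e-05). Sult1e1, the estrogen sulfotransferase, was listed at 0 in 10 of 15 fed and 4 of 15 fasted mice and reached 2.78 CPM in fed and 4.81 CPM in fasted mice. Its fitted log2 fold change was 2.41 ± 0.76 (adjusted p = 0.0238), which depends on the prior count at these levels. It reached 1 CPM in 7 of the 30 mice and met the filter only through LF fasted mice, where its mean was highest. Its place among the members called for fasting is therefore not independent of the filter. Sult1c2 fell, by 1.38 ± 0.35 on the log2 scale (adjusted p = 0.0034), at 1.73 to 7.51 CPM in fed and 0 to 6.84 CPM in fasted mice.

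**Figure D2:**
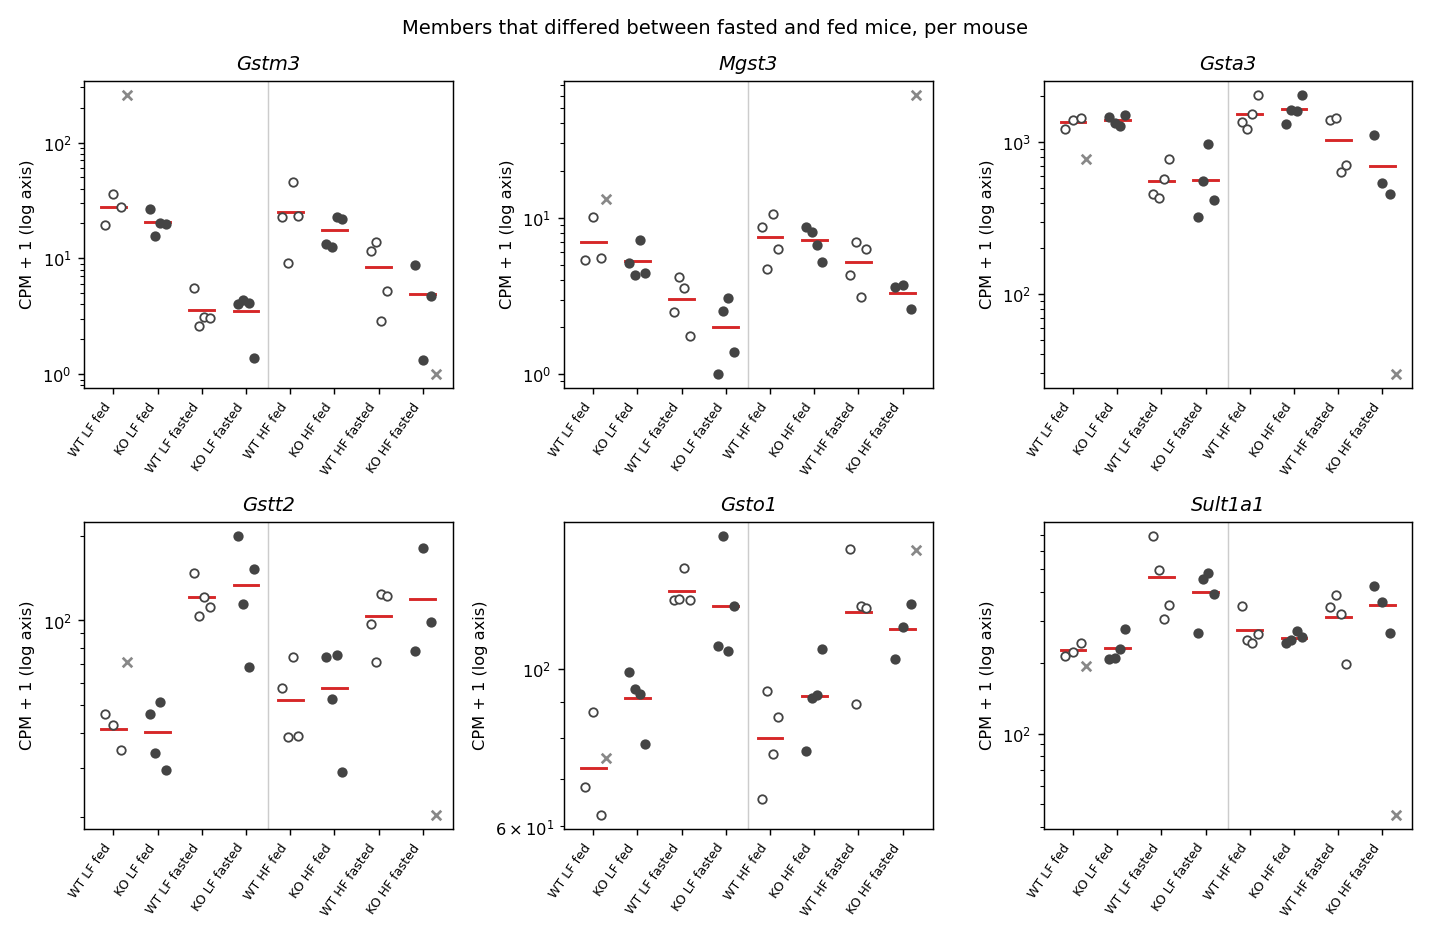
CPM + 1 on a log axis for 6 members that passed the fasting comparison, per mouse and group; open circles are WT, filled circles KO, red lines means, grey crosses the 2 libraries left out. Gstm3, Mgst3 and Gsta3 are lower and Gstt2, Gsto1 and Sult1a1 higher in the means of the fasted groups on both diets.

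None of the 39 members kept fed and fasted mice fully apart across both diets, where 0.236% of all genes did. On the LF diet alone, 7 members did, 5 lower (Gsta3, Gstm3, Gstm6, Gstm7 and Mgst3) and 2 higher (Gsto1 and Gstt2) in all 8 fasted than in all 7 fed mice, against 4.96% of all genes. With replicate 2 of WT LF fed put back, 4 of these remained apart (Gstm3, Gstm7, Mgst3 and Gsto1). The share of all genes was not counted for that set of mice. On the HF diet none of the 39 members separated the 7 fasted from the 8 fed mice, against 0.58% of all genes.

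Fitted within each diet, fasting called 14 members on the LF diet, 4 higher and 10 lower, against 16.3% of all genes. On the HF diet it called 8, 2 higher and 6 lower, all of them Gst genes, against 2.05% of all genes. Gstm3 changed by −3.16 on the LF and −1.90 on the HF diet (log2), Gsta3 by −1.30 and −0.90, Gstm6 by −1.11 and −0.92, and Gstt2 by 1.66 and 1.03. These genes passed on both diets, as did Gstm1, Gstm7 and Gsto1. Gstm2 changed by −0.97 on the HF diet (adjusted p = 0.0112) and its estimate on the LF diet, −0.26, did not pass. Sult1a1, by contrast, passed on the LF diet (0.91) and not on the HF diet (0.32, adjusted p = 0.411), as did Mgst3 (−1.82 and −1.05, the latter with adjusted p = 0.192). Among the Ugt genes, Ugt2b1 (−0.53, adjusted p = 0.0438) and Ugt2b34 (−0.39, adjusted p = 0.0295) passed on the LF diet. Sult1c2 fell by 2.34 on the log2 scale on the LF diet, where WT fasted mice had at most 1 count. Sult1e1 had 1 count in all 7 LF fed mice together and 51 counts in the 8 LF fasted mice, of which 1 mouse held 19. Their ratio per library size was 50.4 with an exact 95% Poisson interval of 8.64 to 2030, which covers counting error only. Because Sult1e1 met the filter only through LF fasted mice, this ratio and its interval are a description. On the HF diet Sult1e1 had 14 counts in 8 fed mice (mean 0.651 CPM) and 13 in 7 fasted mice (mean 0.522 CPM), with a fitted log2 fold change of −0.087 (adjusted p = 0.994). The test of the difference between the diets gave −4.99 for Sult1e1 (adjusted p = 0.0914).

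**Figure D3:**
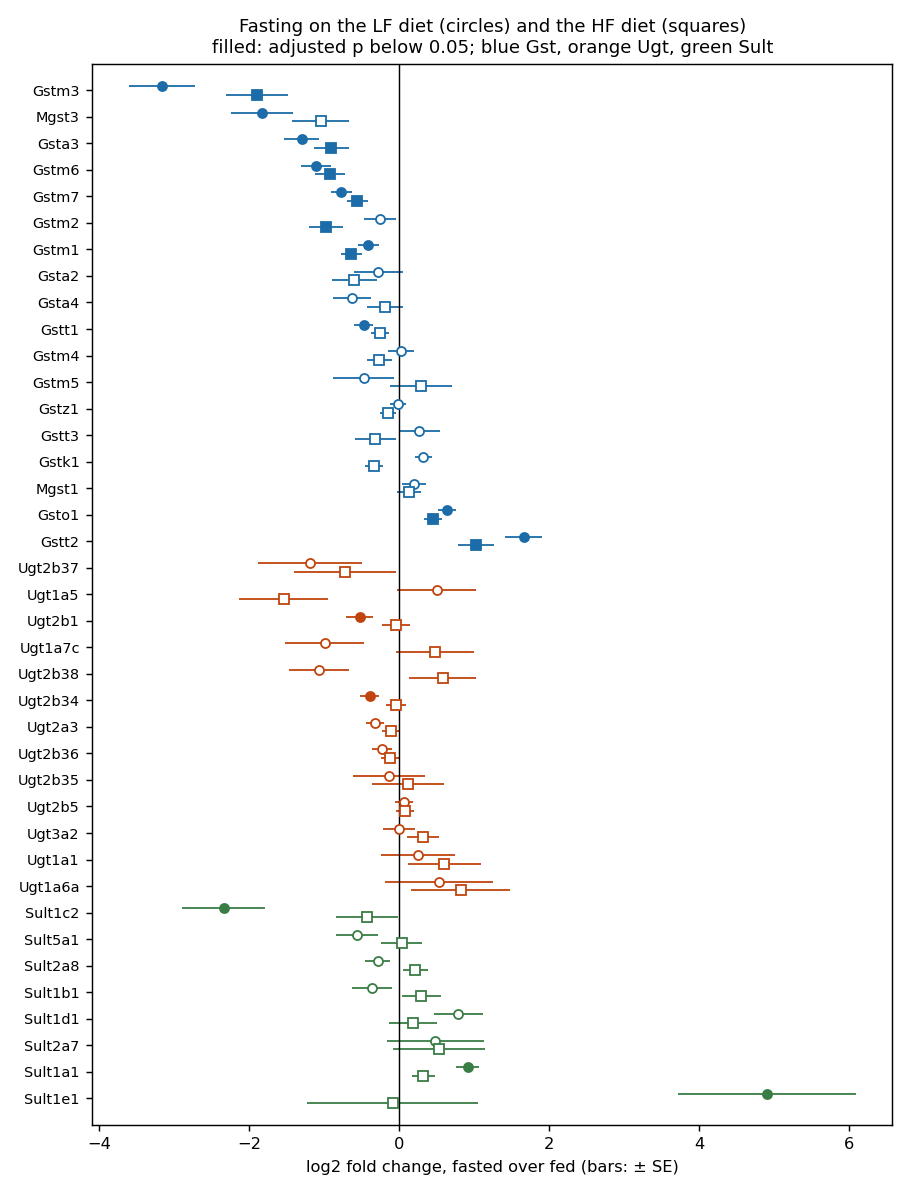
Log2 fold change of fasted over fed mice for each of the 39 members, fitted separately on the LF diet (circles) and the HF diet (squares), with bars of ± SE; filled symbols passed an adjusted p below 0.05. Blue marks Gst, orange Ugt and green Sult genes, and the filled symbols on the HF diet are all Gst genes.

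The difference between the fasting responses on the 2 diets was itself tested. It passed for 1 member, Gstk1, against 1.81% of all genes, and 9 members had an unadjusted p below 0.05, where 12.1% of all genes did. Gstk1 encodes the kappa-class transferase of mitochondria and peroxisomes. It was at 92.4 to 137 CPM (median 106) in LF fed and 107 to 170 CPM (median 135) in LF fasted mice, and at 145 to 193 CPM (median 177) in HF fed and 108 to 188 CPM (median 132) in HF fasted mice. The HF fed mice lay above all LF fed mice, and the fasted mice of both diets overlapped. How many of all genes kept HF fed and LF fed mice apart was not counted. Fasting moved Gstk1 by 0.32 on the LF diet (adjusted p = 0.05, not below the threshold) and by −0.33 on the HF diet (adjusted p = 0.167), and the difference was −0.66 ± 0.16 (adjusted p = 0.0227). Without replicate 1 of WT LF fed the difference no longer passed (adjusted p = 0.0622).

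The second comparison asked how the diets differed. Members that passed were all higher on the HF diet: 6 of 39, against 2.72% of all genes called in either direction and 1.78% called higher. They were 4 Gst genes, 1 Ugt gene and 1 Sult gene. Sult1c2 was at 0 to 6.24 CPM (median 2.07) on the LF and 0.467 to 7.51 CPM (median 5.60) on the HF diet, a log2 fold change of 1.68 ± 0.35 (adjusted p = 0.0029). Gsta2 and Gsta4, alpha-class transferases, the latter active on the lipid peroxidation product 4-hydroxynonenal, rose by 0.79 ± 0.22 (adjusted p = 0.04) and 0.68 ± 0.18 (adjusted p = 0.0282). Gstt1 was at 96.2 to 201 CPM (median 153) on the LF and 150 to 240 CPM (median 209) on the HF diet, a log2 fold change of 0.42 ± 0.09 (adjusted p = 0.0022). Gstk1 rose by 0.32 ± 0.08 (adjusted p = 0.0204) and Ugt2b36, the most abundant Ugt gene, by 0.32 ± 0.09 (adjusted p = 0.0476). None of the 39 members separated all LF from all HF mice, against 0.0143% of all genes. The calls of Gsta2 and Ugt2b36 lay closest to the threshold and were lost in 15 and 24 of the 30 fits that left out 1 mouse. For Gsta2, 62.1% of the 50-base windows near the 3′ end also occur in other transcripts, Gsta1 among them.

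Within fed mice the diets differed for 1 member, Gstk1 (0.65, adjusted p = 0.00247), against 0.215% of all genes. Within fasted mice they differed for 6, against 5.11% of all genes. Sult1c2 (2.63), Gstt1 (0.53), Sult2a8 (0.61), Gsta4 (0.90) and Sult1b1 (0.88) were higher on the HF diet, and Ugt1a5 was lower (−1.88, adjusted p = 0.0494). The Ugt1a genes share their last exons: within 500 bases of the 3′ end, all bases of Ugt1a1, Ugt1a5 and Ugt1a6a and 44% of those of Ugt1a7c lie in exons of other genes, so reads of a given Ugt1a transcript cannot be assigned with certainty, and these genes were at means of 2.11 to 2.95 CPM.

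**Figure D4:**
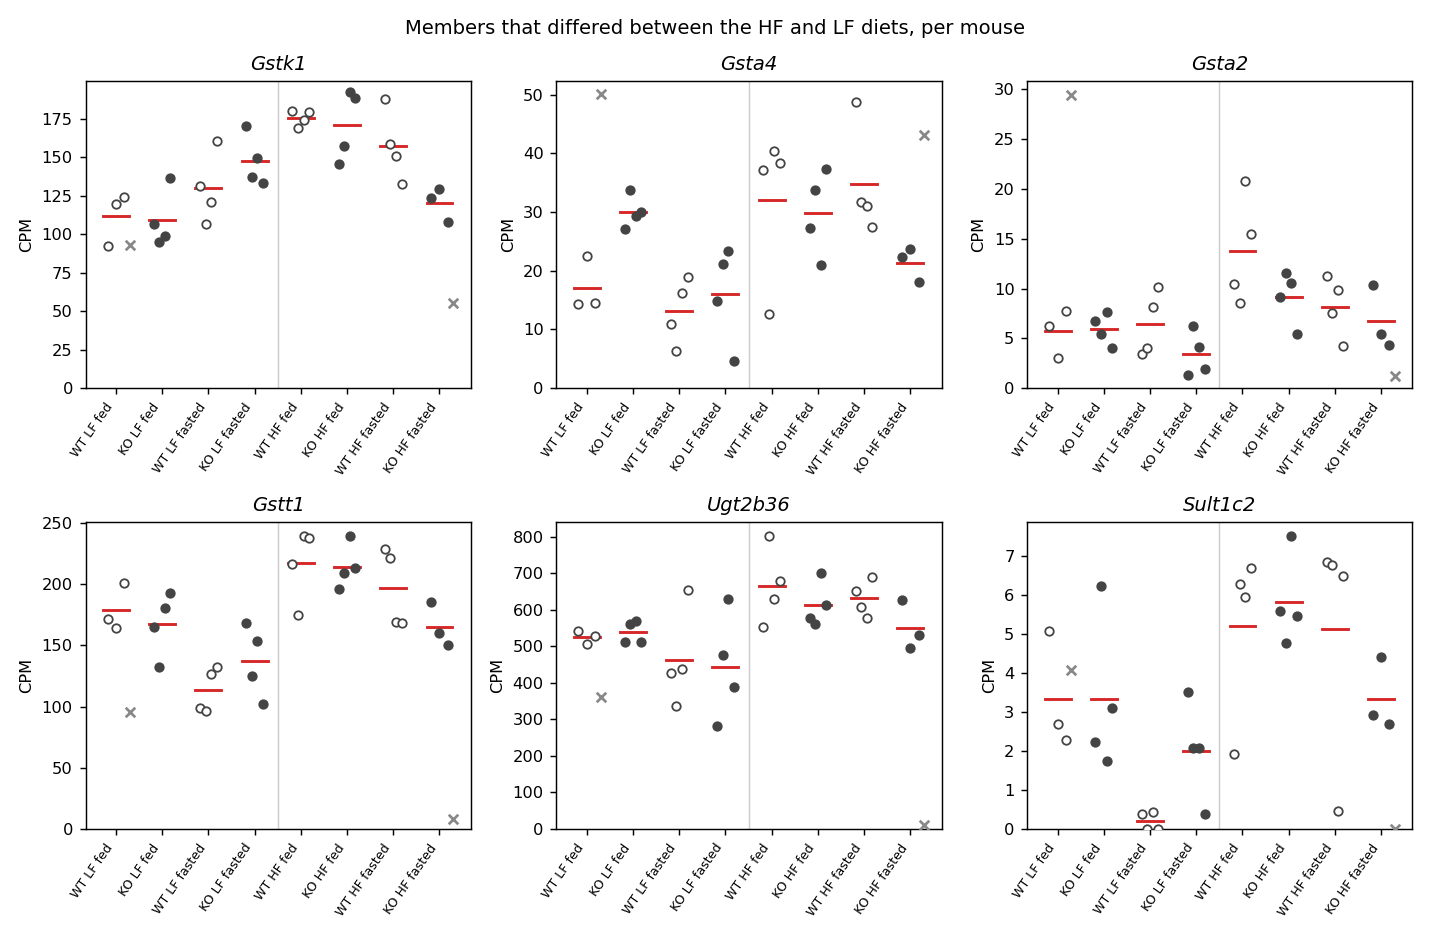
CPM of the 6 members that passed the diet comparison, per mouse and group, on linear axes from 0; open circles are WT, filled circles KO, red lines means, grey crosses the 2 libraries left out. Gstk1 is high in HF fed mice of both genotypes, and Sult1c2 is at or below 0.426 CPM in the WT LF fasted mice.

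The third comparison asked whether the loss of MCAD changed these genes. No member passed an adjusted p below 0.05 in the average over conditions, in any of the 4 conditions or in the test of genotype by condition. The average and each of the 4 conditions called 0.00716% of all genes, which is 1 gene, Acadm, and the test of genotype by condition called 0%. At an unadjusted p below 0.05 there were 2 members in the average (3.27% of all genes), 1 in LF fed (4.16%), 1 in LF fasted (5.71%), 1 in HF fed (2.96%), 2 in HF fasted (2.41%) and 3 in the test of genotype by condition (3.59%). On simulated counts with 13960 genes, 200 genes drawn at random from all of them were changed. There the comparison of KO with WT in HF fasted mice recovered 25% of changes of 1 and 60% of changes of 2 on the log2 scale. These rates are not those of the members in particular, and smaller changes were not simulated.

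In HF fasted mice Gstm1 was at 1071, 781, 483 and 555 CPM in the 4 WT mice and at 506, 383 and 430 CPM in the 3 KO mice used. Of the KO mice 1 lay within the WT range, and the log2 fold change was −0.72 ± 0.21 (unadjusted p = 0.00159, adjusted p = 1). Gstk1 was at 188, 159, 151 and 132 CPM in WT and 123, 129 and 108 CPM in KO mice, without overlap (−0.39 ± 0.17, unadjusted p = 0.027). The share of all genes without overlap between these groups was not counted. In LF fasted mice Sult1c2 was at 0.375, 0, 0.426 and 0 CPM in WT and 3.51, 2.06, 2.07 and 0.388 CPM in KO mice, with 1 KO mouse within the WT range. These were 2 counts in WT and 21 in KO, a ratio of 11.3 with an exact 95% Poisson interval of 2.75 to 99.1 for counting error only, and the test over mice gave an unadjusted p = 0.00128 and an adjusted p = 0.794. In HF fed mice Ugt2b38 was at 2.70, 2.96, 0 and 2.11 CPM in WT and 7.70, 4.77, 3.003 and 8.99 CPM in KO mice (1.68, unadjusted p = 0.0127). In LF fed mice Gsta4 was at 14.3, 22.5 and 14.6 CPM in the 3 WT mice used and 27.2, 33.7, 29.4 and 30.03 CPM in KO mice (0.82, unadjusted p = 0.0331). The replicate of WT LF fed left out had 50.1 CPM of Gsta4, above all of these. Averaged over conditions, Ugt2b38 (0.72, unadjusted p = 0.0218) and Mgst3 (−0.57, unadjusted p = 0.0461) came closest.

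The study's own gene set results name members for 2 of these comparisons, chosen on these same mice, so their direction is not independent evidence. Of 16 members named as lower in KO HF fasted mice, 15 had an estimate below 0, with a median of −0.35 and 2 at an unadjusted p below 0.05. The other 23 members had a median of −0.06, 13 of them below 0. Of 5 members named as higher in KO LF fed mice, all 5 had an estimate above 0, with a median of 0.26 and 1 at an unadjusted p below 0.05. Over all 39 members in HF fasted mice, 28 estimates lay below 0, among them 16 of 18 Gst genes, beside 51.3% of all genes. These counts include the 16 members the study named from these mice, most of which are Gst genes, so they are not separate evidence.

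**Figure D5:**
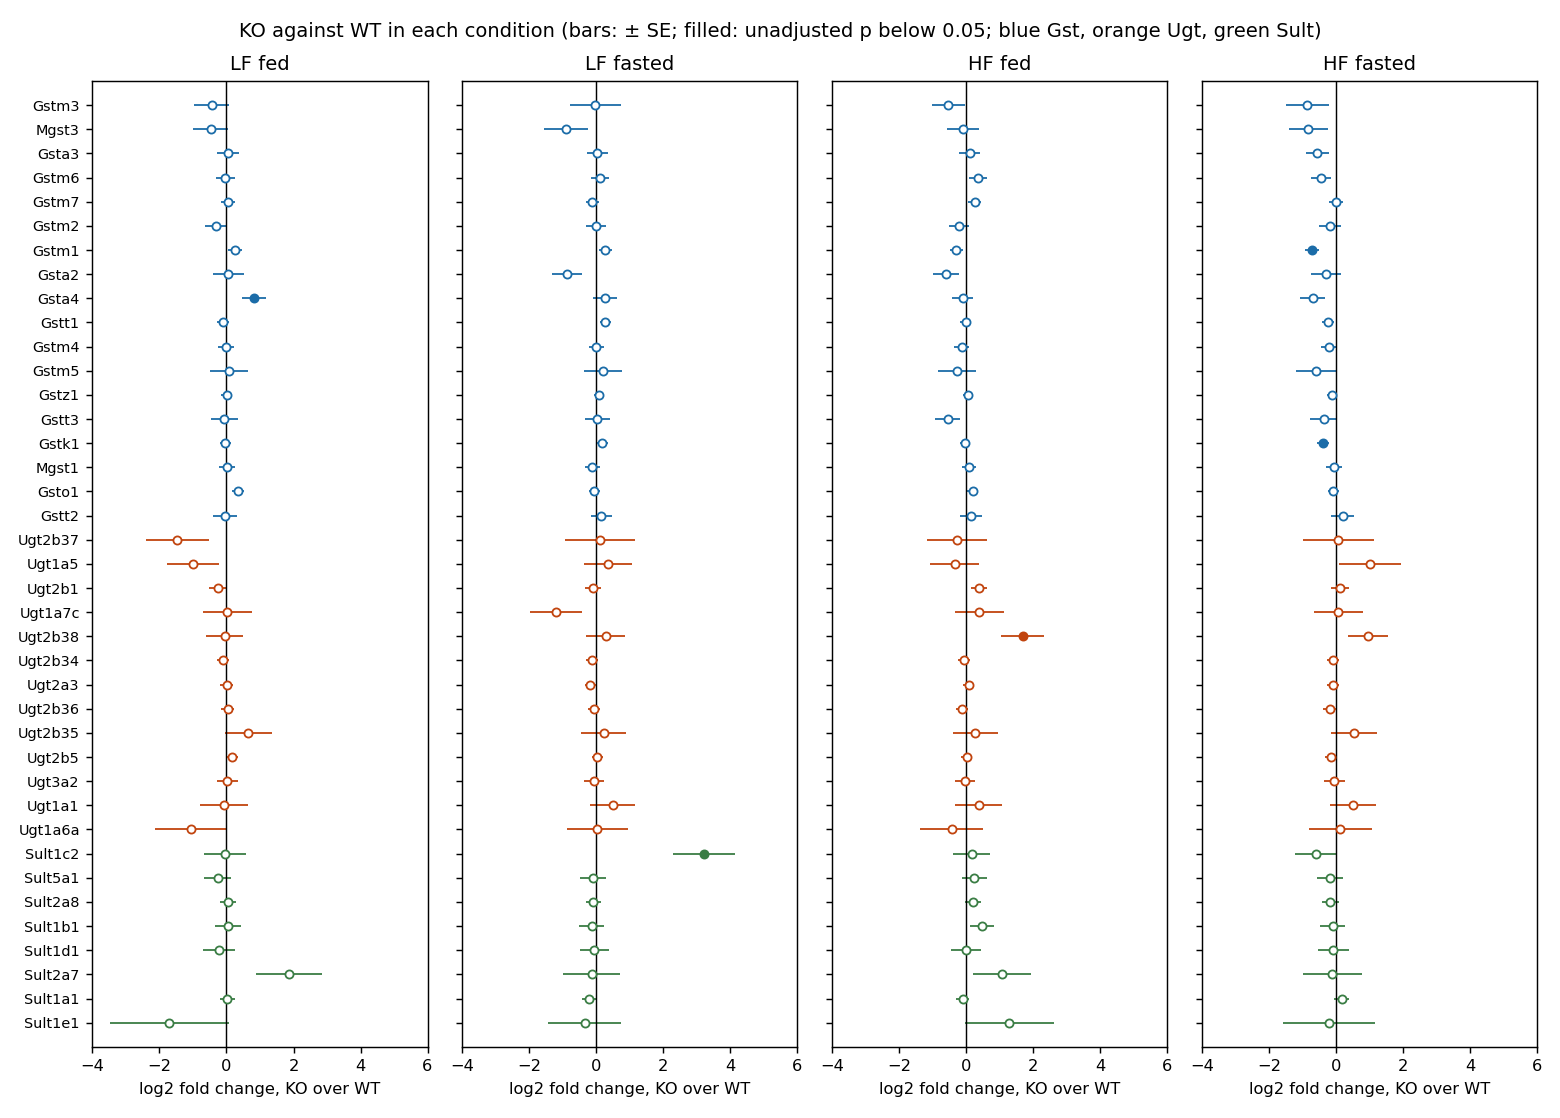
Log2 fold change of KO over WT mice for each member in the 4 conditions, with bars of ± SE; blue marks Gst, orange Ugt and green Sult genes, and filled symbols an unadjusted p below 0.05. The 5 filled symbols are Gsta4 in LF fed, Sult1c2 in LF fasted, Ugt2b38 in HF fed, and Gstm1 and Gstk1 in HF fasted mice.

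The other lists, 133 tested genes in all when each is counted once, gave 43 higher and 32 lower calls on fasting, 56.4%, beside the 15.7% of all genes. The lists were chosen with earlier results of these data known, so the share is a description. Of 5 tested genes that supply UDP-glucuronic acid, 2 fell, among them Ugp2, which makes UDP-glucose (−0.79, adjusted p = 3.58e-08), and none rose. Of 7 genes of PAPS and sulfate supply, 2 fell, Papss1, a PAPS synthase (−0.82, adjusted p = 0.00147), and Slc26a1, a sulfate carrier (−0.39, adjusted p = 0.00302), and 1 rose (Impad1, 0.29). Of 14 glutathione genes, 4 fell, among them Gclc, the catalytic subunit of the first step of glutathione synthesis (−0.69, adjusted p = 2.02e-06), and 1 rose, Oplah, which recycles 5-oxoproline (0.98, adjusted p = 8.48e-09). Of 20 other conjugating and hydrolysing enzymes 5 rose and 7 fell, with the epoxide hydrolases Ephx2 (0.90) and Ephx1 (0.63) higher and the quinone reductase Nqo2 (−0.996) lower. Of 17 phase I partners 7 rose, led by Por, the electron donor of cytochromes P450 (2.36, adjusted p = 1.88e-13), and 2 fell. Of 12 transporters of conjugates 2 rose (Abcc3, 0.69, and Slco1a4, 1.26) and 4 fell.

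Among 18 regulators of conjugation genes 6 rose and 3 fell. Nr1i3, which encodes CAR, rose by 1.52 (adjusted p = 3.6e-16), and Nr3c1, the glucocorticoid receptor, and Stat5b fell (−0.42 and −0.43). Lists of known targets moved differently from each other in their counts. Of 14 PPARα targets 13 rose and none fell, with a median log2 fold change of 2.27. Of 9 NRF2 targets outside the 3 families 1 rose (Srxn1, 0.58) and 5 fell, among them Gclc and Osgin1 (−1.09). Of 8 CAR and PXR targets 3 rose and 2 fell. Of 12 genes known as male-biased in liver 2 rose and 4 fell, Hsd3b5 the most (−2.94), and of 8 female-biased genes 5 rose, Acot3 the most (3.67), and none fell. Some genes stand in more than 1 list, Gclc, Por and Cyp2b10 among them, and Acot3 is also a known PPARα target.

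For diet the same 133 genes gave 19 higher and 2 lower calls, 15.8%, beside the 2.72% of all genes. Calls were 1 higher of 5 for UDP-glucuronic acid supply (Ugp2, 0.40), none of 7 for PAPS and sulfate supply, 1 higher of 14 for glutathione (Gclc, 0.42) and 1 higher of 20 for other conjugating and hydrolysing enzymes (Hnmt, 0.66). Phase I partners gave 6 higher of 17, led by Aox3 (1.04), Cyp2c50 (0.88) and Cyp2c54 (0.80), and transporters 3 higher of 12 (Abcc3, 0.92, and Slco1b2, 0.42, among them). Of 18 regulators 1 was higher (Nr1i3, 0.35), of 9 NRF2 targets 3 were higher, of 8 CAR and PXR targets 3 were higher, and of 14 PPARα targets none passed. Male-biased genes gave 1 higher and 1 lower of 12, and female-biased genes 2 higher and 1 lower of 8. No gene of any of these lists passed in a comparison of KO with WT mice.

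Several marker lists of other cell types, and lane and age, moved with the comparisons. The 8 adipose markers summed to 2059 to 3675 CPM in fed and 196 to 2365 CPM in fasted mice. Car3 alone reached 3644 CPM, while Cfd, Fabp4 and Cidec reached at most 41.3, 120 and 174 CPM in the 30 mice. Of the 5 tested adipose genes 1 fell on fasting, Car3 (−2.39, adjusted p = 1.14e-05), and 1 rose, Cidec (4.73, adjusted p = 7.75e-07). Adipoq, a defining marker of adipocytes, was at or below 8.53 CPM in all 30 mice. Fasting also lowered 3 of 9 stellate cell markers, 2 of 6 erythroid, 1 of 9 liver macrophage, 1 of 6 cholangiocyte and 1 of 8 adrenal cortex markers, and raised 1 of 2 intestine and 1 of 8 endothelial markers. Of 10 hepatocyte markers 2 rose and 1 fell. Fed and fasted medians of the summed lists were 484 and 479 CPM for stellate cells, 791 and 622 for erythroid cells, 484 and 359 for liver macrophages, 67.5 and 59.2 for cholangiocytes, 376 and 324 for adrenal cortex, 185 and 270 (269.536) for intestine, 390 (390.457) and 363 for endothelium and 47468 and 47637 for hepatocytes, and the ranges overlapped in each. No tested heart, acinar pancreas, skeletal muscle or neutrophil marker passed for fasting or diet, and the kidney list had 1 gene in the table, listed at 0 in the 30 mice.

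With diet, the adipose sum, in which Car3 reached the highest level of the tested genes, had a median of 515 CPM on the LF and 2346 CPM on the HF diet. Of its 5 tested genes 1 was higher on the HF diet. The HF diet also raised 2 of 9 stellate cell markers (median sums of 454 and 504 CPM) and 1 of 6 cholangiocyte markers (59.9 and 67.5 CPM), and 1 of 10 hepatocyte markers was lower (49295 and 44637 CPM). Acinar pancreas markers summed to 17829 CPM in replicate 2 of WT HF fasted and 2624 CPM in replicate 1 of KO HF fed, and to at most 56.5 CPM in the other 28 mice. Skeletal muscle markers summed to 1390 CPM (1389.5) in replicate 1 of KO HF fed, 757 CPM in replicate 4 of WT HF fed and 327 CPM in replicate 4 of WT HF fasted, all on the HF diet, and no other mouse was above 31.4 CPM. The part of these marker lists in the results was not tested.

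Labelled ages were 9 to 16 in fed and 7.5 to 14 in fasted mice, and 7 fed and 9 fasted mice were on lane 7. All WT LF fed mice were on lane 8, so lane and that group cannot be told apart. The fits within a lane, with genotype, diet and state as additive terms, therefore do not average the same groups. With a lane or an age term in the fit, 13 members passed for fasting and 5 for diet. Within lane 7, 3 members passed for fasting, Gstt2 (1.16), Gstm3 (−1.92) and Sult1a1 (0.75), while Gsta3 (−0.75, adjusted p = 0.145), Gstm6 (−0.54, adjusted p = 0.0984), Gstm7 (−0.38, adjusted p = 0.147), Gsto1 (0.45, adjusted p = 0.094), Mgst3 (−1.11, adjusted p = 0.137) and Sult1c2 (−0.38, adjusted p = 0.782) kept their direction without passing. Gstm1, Gstm2 and Gstt1 did not pass there either, and Sult1e1 had no value in that fit. Within lane 8, 12 members passed for fasting, not all of them among the 13 called with both lanes. Sult1a1 (0.35, adjusted p = 0.0531) and Sult1e1 (2.60, adjusted p = 0.0945) did not pass there. No member passed for diet in either lane. The shares of all genes called in the fits within a lane or with a lane or age term are not given here.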

How the data were processed

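Samples labelled as liver from 32 mice were profiled by 3′ RNA sequencing. The authors aligned the reads to GRCm38 with HISAT 0.1.5 and SAMtools 1.2 and deposited 1 table of raw read counts per gene, made with HTSeq 0.6.1p1; the methods name Ensembl release 82 and the sample labels another release, so the annotation is not settled. A union-mode counter drops reads that overlap several genes or align equally well to several places. Groups, lanes and replicate numbers came from the sample labels, and all table columns were matched to samples. The 158 identifiers without a symbol, 0.115% of counts, stayed in library sizes and tests.

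Genes with at least 1 CPM in at least 4 of the 30 mice were tested with edgeR 4.0.16 (R 4.3.3, TMM scaling, robust quasi-likelihood F test) in 1 model of 8 groups, with Benjamini-Hochberg adjustment over all 13960 genes and a threshold of 0.05. SEs are log2 fold changes divided by the square root of F. Printed CPM of the 30 mice use TMM scaling over those 30 libraries. Those of the 2 libraries left out use TMM scaling over all 32, so the 2 scales differ where they are compared. Replicates are labelled as separate mice. The members and gene lists were chosen with earlier results of these data known. Members named with values were the 4 most abundant of each class, up to 5 per class and direction with the largest called change, those with the smallest unadjusted p for genotype, and those the study lists; of other lists, up to 3 genes with the smallest adjusted p. Exceptions, named after their values were seen, are Adipoq and members that passed within 1 diet only. Alternatives were DESeq2 1.42.0, limma 3.58.1 (voom), other filters and size factors, lane, age and replicate terms, other sets of mice and each mouse left out. On simulated counts of 13960 genes, 200 of them changed, the fasting comparison recovered 68% of changes of 1 and 82% of changes of 2 on the log2 scale, with 3.23% false calls. Among 48 pairs of mice of 1 group, the smallest chi-square per degree of freedom was 3.93, so none was a repeat of another within sampling noise. Same-numbered replicates did not deviate together (median residual correlation 0.00252 over 98 pairs).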

Additional observations from a re-analysis of the deposited data

Results flagged for a closer look

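Within groups of 4 mice, 29 members gave 174 groups to examine for a mouse far from the other 3 (Dixon's test at the 95% level). Of these 13 stood apart, 7 low and 6 high, where chance gives about 1 in 20 for normally distributed values. The share over all genes was not counted. Some flags rest on few counts, where that rate need not hold, such as Sult1e1, listed at 0 in the other 3 mice of WT HF fed. The low mice were replicate 2 of WT HF fed for Gsta4 (12.6 CPM) and Gstm2 (17.7 CPM), replicate 4 of KO LF fasted for Gstm1 (397 CPM) and Gstm3 (0.388 CPM), replicate 3 of WT HF fasted (0.467 CPM) and replicate 1 of WT HF fed (1.93 CPM) for Sult1c2, and replicate 1 of KO LF fed for Sult1d1 (68.7 CPM). The high mice were replicate 3 of WT HF fed for Gstm5 (8.02 CPM), replicate 3 of WT LF fasted for Gsto1 (138 CPM), replicate 4 of KO LF fed for Gstz1 (449.8 CPM), replicate 1 of WT HF fasted for Sult1d1 (180.4 CPM), replicate 4 of WT HF fed for Sult1e1 (1.41 CPM) and replicate 4 of KO HF fed for Sult2a8 (823 CPM).

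The fasting response of Gstk1 differed between the diets by −0.66 on the log2 scale (HF minus LF), the only such difference among the 39 members that passed an adjusted p below 0.05.

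The 2 libraries left out lay outside the range of the 30 mice for many members. In replicate 4 of KO HF fasted 3 members were above all 30 mice (Gstm2 at 63.4, Gstm5 at 24.3 and Mgst3 at 59.8 CPM), where 21.6% of all genes were, and 25 were below (Mgst1 at 167 and Ugt2b5 at 9.86 CPM among them), where 18.3% of all genes were. In replicate 2 of WT LF fed 7 members were above all 30 mice, where 9.72% of all genes were, and 9 were below, where 5.69% were. Gstm3 stood at 256 CPM there, against 18.4 to 35.0 CPM in the other 3 mice of its group, and Gsta2 at 29.4 CPM, while Sult2a8 stood at 16.0 CPM, against 538 to 582 CPM, and Ugt2b1 at 97.9 CPM.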

How the results depend on the processing

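Counts of members called were compared with those of the report, 13 for fasting, 6 for diet, 14 and 8 for fasting on the LF and HF diet, 1 and 6 for diet in fed and in fasted mice, 1 for fasting by diet and 0 for each comparison with genotype. The shares of all genes called in the alternative fits are not given here. A change in the calls of all genes and one particular to the members therefore cannot be told apart from these counts. With all 32 mice the counts were 8 for fasting, 0 for diet, 1 for fasting on the HF diet, 0 for diet in fed mice, 2 for diet in fasted mice and 0 for fasting by diet, and with only the heart-marked library left out the count for diet in fasted mice was 2. Within lane 7 the counts were 3 for fasting and 0 for diet, and within lane 8 0 for diet. DESeq2 called 3 members for diet in fed mice. Each comparison with genotype stayed at 0 members in every alternative run. Leaving out each of the 30 mice in turn gave 12 to 16 for fasting, 2 to 8 for diet, 11 to 17 and 4 to 8 for fasting on the LF and HF diet, 1 to 2 and 2 to 7 for diet in fed and in fasted mice, and 0 to 1 for fasting by diet. The mice that moved these counts by over 1.5 times were WT LF fed replicate 1 (diet, fasting by diet), WT LF fasted replicate 1 (diet, diet in fasted mice), WT LF fasted replicate 2, KO LF fasted replicate 1 and KO HF fasted replicate 2 (diet in fasted mice), and KO HF fasted replicates 2 and 3 and WT HF fasted replicate 4 (fasting on the HF diet). In addition, 6 other mice each gave 2 members in place of 1 for diet in fed mice.

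Of single members, Gsta2 lost its diet call with limma voom (adjusted p = 0.0574), a lane term (0.0584) and 31 mice (0.329), Ugt2b36 with RLE factors (0.0515) and an age term (0.0629), and Gsta4 with 31 mice (0.196). The fasting call of Sult1e1 was lost with limma voom (0.0547) and without KO HF fasted replicate 3 (0.141). Directions that turned were those of members that did not pass: with all 32 mice, Mgst3 between genotypes (0.052), Gstm1 (−0.094) and Gstm5 (−0.21) in LF fed, and Gstm2 (0.40), Mgst3 (1.99) and Gsto1 (0.014) in HF fasted mice; with 31 mice, Gstm1 (−0.10) and Gstm5 (−0.21) in LF fed mice. Leaving out 1 mouse, Gstm5 in LF fed mice ranged from −0.15 to 0.46, and Gstm2 and Gsto1 in HF fasted mice from −0.40 to 0.068 and −0.20 to 0.033. The cause was not tested.

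With the replicate number as a block, 13 members were called for fasting, 5 for diet, 14 and 7 for fasting on the LF and HF diet, 1 and 5 for diet in fed and fasted mice and 1 for fasting by diet. Same-numbered mice had residual correlations of −0.19 to 0.126, so the numbers do not pair the mice. Sult1e1 rests on at most 19 counts in a mouse and the Ugt1a genes on at most 22, the latter also with 3′ ends shared with other genes.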
